A study of Homo sapiens with 3 samples.

Results

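The CC chemokines CCL3, CCL4 and CCL5 were read on 3 one-color oligonucleotide arrays of THP-1 macrophages, as every transcript probe whose gene name in the scanner output was CCL3, CCL3L3, CCL4, CCL4L2 or CCL5. The names CCL3L3 and CCL4L2 belong to duplicated copies of CCL3 and CCL4. Of the 5 names, 4 were found, on 8 of the 58201 probes of the array and among 43317 gene names. CCL3 and CCL5 had 1 probe each, CCL3L3 had 2, and CCL4L2 had 4. No probe carried the name CCL4, so the values given for CCL4L2 are those of the copy as the array names it, and whether its probes also bound CCL4 transcripts was not tested.

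THP-1 cells are a leukemia line of human monocytic origin. The phorbol ester PMA, given at 100 ng/mL for 24 to 36 h and followed by a night in fresh medium, turned the cells into macrophages in all 3 conditions. The conditions were macrophages with no further agent (Ctrl), macrophages activated with imiquimod, a ligand of Toll-like receptor 7 (IMQ), and macrophages given DMD, a small phenolic compound from the mushroom Antrodia cinnamomea, before IMQ (IMQ+DMD). The label of the last array writes X for the compound, and X was taken to be DMD, since the series names only DMD and IMQ as agents given after PMA. A time of 4 h is in the label of each array, whereas the general methods of the study describe longer THP-1 cultures, and the labels give no dose of IMQ or DMD. Each condition had 1 array of 1 culture, all on 1 slide, so no test was possible and each difference compares these arrays only. There was no array of DMD without IMQ.

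CCL3 (MIP-1α) and CCL4 (MIP-1β) are small secreted proteins that activated macrophages release within hours of a Toll-like receptor signal, and their genes are known targets of NF-κB. CCL3 and CCL5 (RANTES) both act on the receptor CCR1, and CCL5 also acts on CCR3. Together the chemokines draw monocytes, T cells and natural killer cells. CCL5 is known as a slower gene in many cells, with interferon regulatory factors among its activators. The genes lie close together on chromosome 17, and CCL3L3 and CCL4L2 belong to a stretch whose copy number differs between human genomes.

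The probes are shown first because the copies are so alike that the sequence decides what a value can mean. Each probe is a 60-base oligonucleotide, and its first 30 bases are given 5′ to 3′, with coordinates of the whole probe from the scanner output (build hg19).
CCL3, chr17:34415605-34415664, minus strand: tgcttttgttcagggctgtgatcggcctgg
CCL3L3 probe 1, chr17:34523201-34523260, minus strand: ttccacagaatttcatagctgactactttg
CCL3L3 probe 2, chr17:34524080-34524139, minus strand: aagagtagtcagtcccttcttggctctgct
CCL4L2 probe 1, chr17:34539699-34539758, plus strand: atccagtgagtggaagttacagggagtctg
CCL4L2 probe 2, chr17:34539776-34539835, plus strand: catggaccatggtcaggcagaggaagatgc
CCL4L2 probe 3, chr17:34539907-34539966, plus strand: aagtctgtgctgatcccagtgaatcctggg
CCL4L2 probe 4, chr17:34539984-34540043, plus strand: caggaagtcttcagggaaggtcacctgagc
CCL5, chr17:34199332-34199391, minus strand: agatgagctaggatggagagtccttgaacc

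The 4 CCL4L2 probes lie within 345 bases of each other, with 17, 71 and 17 bases between neighbors. The 2 CCL3L3 probes are 819 bases apart. No other probe on the array shared a run of 20 bases with any of the 8, and their GC content was between 41.7% and 55.0%. No annotation of build hg19 was used here, so exons and untranslated parts were not assigned.

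CCL3L3 probe 2 could be set against CCL3 itself through promoter entries of RefSeq (GRCh38.p14). The entries at the outer start of each gene cover probe bases 1 to 32, and a second CCL3 entry, which belongs to a start further into the gene, covers bases 23 to 60. The probe differed from CCL3 at 5 of its 60 bases, namely A1G, G3C, A7G, C16T and A51G, counted from 1 at the 5′ end of the probe with the base of the probe first. The first 30 bases of both are printed below with the 4 differing bases among them in capitals.
CCL3L3 probe 2: AaGagtAgtcagtccCttcttggctctgct
CCL3 at the same place: GaCagtGgtcagtccTttcttggctctgct
Whether this probe also binds CCL3 transcripts was not tested. The values of CCL3 and CCL3L3 are therefore uncertain as to which copy they measure, and the scanner output also lists CCL3L1 transcripts under both CCL3L3 probes.

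On each of the 3 arrays all 8 probes carried the mark of the scanner software for a signal well above background, and none of their spots was saturated. Levels are given as the normalized intensity deposited by the authors, on the linear scale, and a difference is one of log2 values, so that a difference of 1 is 2-fold. The error after ± is a technical SD in log2 units, with 1 array per condition. It was taken from the probes nearest in brightness among those printed in 10 spots on the same array. For CCL3 these were all dimmer than its own spot on the IMQ array, at most 17.78 in log2 units against 18.31. The same held on the IMQ+DMD array, with at most 17.77 against 18.18. The technical SD covers the noise between spots and not that between cultures. The error model of the scanner software gave a wider error of 0.20 for most of these differences. Levels were compared between arrays for the same probe and not between probes.

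The signals of CCL3 and its copy CCL3L3 were far higher with IMQ than in Ctrl. The CCL3 probe read 20083 for Ctrl, 325738 for IMQ and 297794 for IMQ+DMD. The Ctrl array was low and the other two were high. The difference between IMQ and Ctrl was 4.02 ± 0.06, or 16.2-fold, and ranked 49 from the top of 41109 compared probes.

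CCL3L3 probe 1 read 2464, 81738 and 73961 on the Ctrl, IMQ and IMQ+DMD arrays. CCL3L3 probe 2 read 1083, 37231 and 34751 in the same order. Both probes were low on the Ctrl array and high on the other two. Their differences between IMQ and Ctrl were 5.05 ± 0.06 and 5.10 ± 0.07, or 33.2-fold and 34.4-fold, so that 2 probes far apart in the copy gave nearly the same factor. They ranked 26 and 24 from the top.

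**Figure D1:**
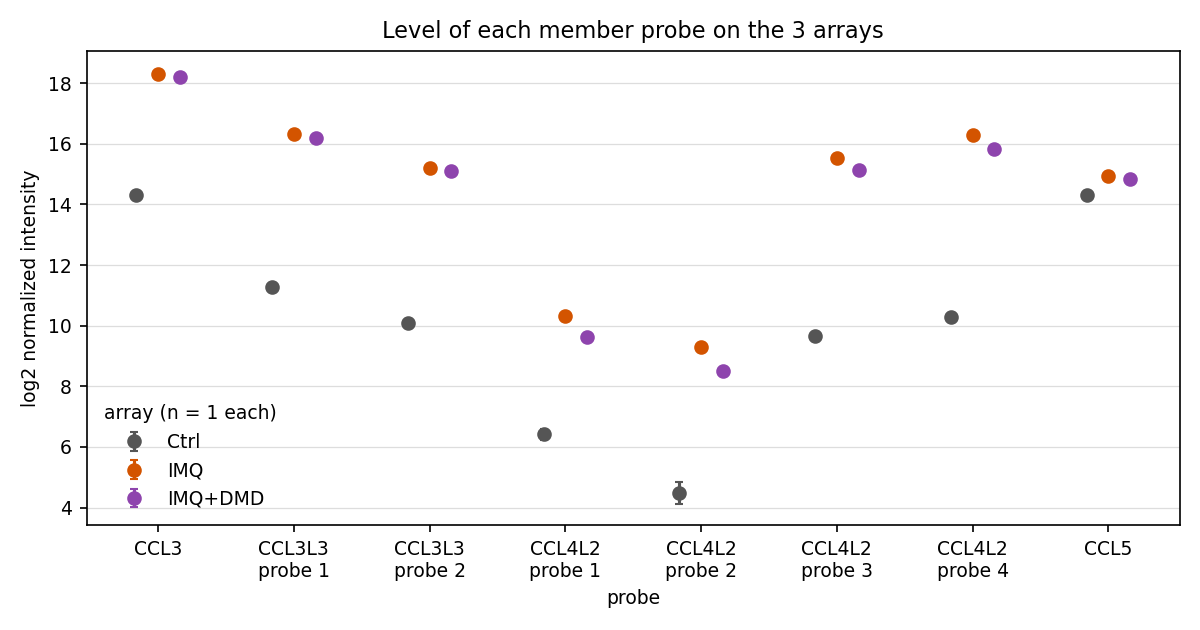
Level of each of the 8 chemokine probes as log2 normalized intensity (y axis) on the Ctrl, IMQ and IMQ+DMD arrays (colored points, 1 array each), with bars of 1 technical SD where they exceed the point. For CCL3, CCL3L3 and CCL4L2 the Ctrl point lies far below the other two, while the 3 CCL5 points lie between 14.30 and 14.94.

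The probes of CCL4L2 gave the widest range. CCL4L2 probe 1 read 85.2, 1275 and 789 on the Ctrl, IMQ and IMQ+DMD arrays. CCL4L2 probe 2 read 22.3, 629 and 360.4. Both were lowest on the Ctrl array, and probe 2 was near the lowest detected signal on the Ctrl array, where its technical SD was 0.35. CCL4L2 probe 3 read 806, 47516 and 35647. CCL4L2 probe 4 read 1244, 80207 and 58569.7. For all 4 probes the order was the same, with Ctrl lowest, IMQ highest and IMQ+DMD between them.

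In log2 units the 4 CCL4L2 probes were higher with IMQ than in Ctrl by 3.90 ± 0.19, 4.82 ± 0.36, 5.88 ± 0.07 and 6.01 ± 0.06, in order along the gene. As factors these were 15.0-fold, 28.2-fold, 59.0-fold and 64.5-fold. With normexp background correction the differences of probes 1 and 2 were smaller, 3.20 and 3.11, and their order was the opposite. Probes 3 and 4, nearer the 3′ end, gave larger differences than probes 1 and 2, by more than the technical SDs. The transcripts that the scanner output lists first for probe 1 are not all the same as those listed for the other 3, and whether the probes measure the same transcripts was not tested. Probe 4 ranked 9 from the top of all compared probes and probe 3 ranked 13.

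**Figure D2:**
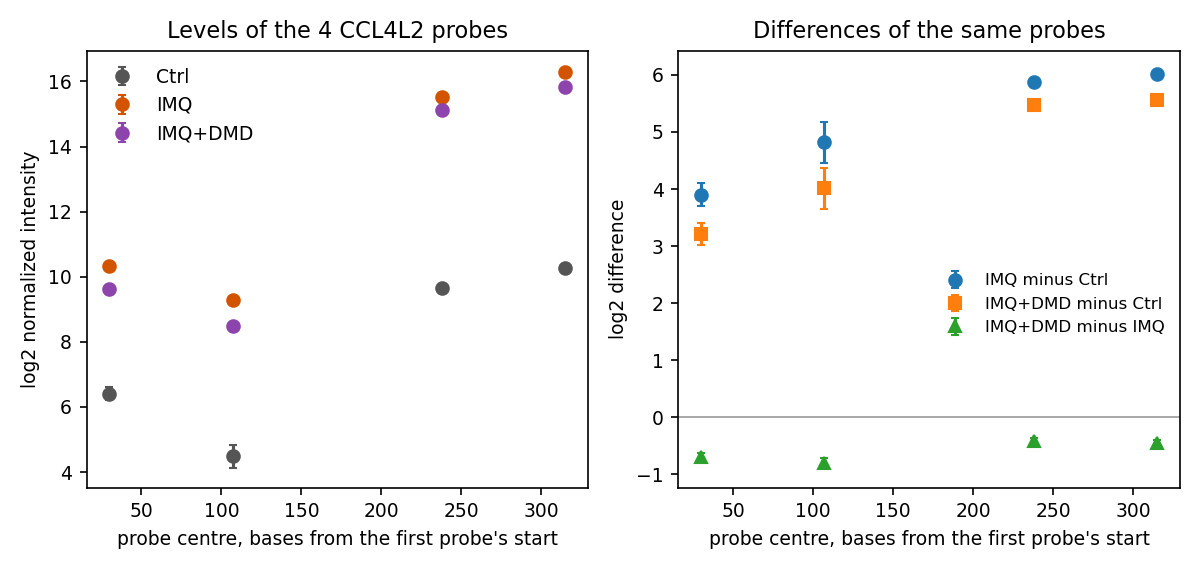
The 4 CCL4L2 probes by the distance of their centers, in bases, from the start of the first probe (x axes), with log2 normalized intensity on each array on the left and log2 differences on the right, and bars of 1 technical SD. The difference between IMQ and Ctrl goes from 3.90 at the first probe to 6.01 at the last, and the difference between IMQ+DMD and IMQ lies between -0.80 and -0.41.

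CCL5 differed least between the arrays. Its probe read 20228 for Ctrl, 31356 for IMQ and 29539 for IMQ+DMD. Ctrl was lowest and IMQ highest. The difference between IMQ and Ctrl was 0.63 ± 0.06, or 1.55-fold, which is larger than the scanner error of 0.20 and short of 2-fold. It ranked 4090 from the top of 41109 compared probes.

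In all, 7 of the 8 probes, from 3 of the 4 genes, were at least 2-fold higher with IMQ than in Ctrl and none was at least 2-fold lower. Over the whole array 4.31% of compared probes were at least 2-fold higher and 3.48% were at least 2-fold lower. The median of the 8 probes was 4.93, against -0.01 for all 41109 compared probes. Several probes read the same gene, so these are 4 genes and not 8 separate readings.

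DMD was given to see whether it lowers the response to IMQ, and for these chemokines the differences were short of 2-fold. No probe differed 2-fold between IMQ+DMD and IMQ (0 of 8 in either direction), against 1.09% of 40831 compared probes that were at least 2-fold higher and 1.31% that were at least 2-fold lower. All 8 were below 0, with a median of -0.28 against -0.01 for all compared probes, of which 19833 were above 0. The 8 come from 4 genes read on the same pair of arrays. Of the 8 probes, 7 were far higher on the IMQ array than on the Ctrl array, and this difference uses the same IMQ array. For CCL3 the difference was -0.13 ± 0.05. For CCL3L3 it was -0.14 ± 0.05 and -0.10 ± 0.05. For CCL5 it was -0.09 ± 0.06. These 3 genes lay within the scanner error of 0.20 under quantile normalization, but not under scaling to the 75th percentile, which gave -0.24 for CCL3, -0.30 for both CCL3L3 probes and -0.26 for CCL5.

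CCL4L2 stood lower on the IMQ+DMD array than on the IMQ array by more than the scanner error at each of its probes. The differences were -0.69 ± 0.07, -0.80 ± 0.08, -0.41 ± 0.05 and -0.45 ± 0.05 in order along the gene. The IMQ signal was thus 1.62, 1.75, 1.33 and 1.37 times that with DMD. Among all compared probes these stood at percentiles 4.01, 2.73, 10.9 and 9.53, while the probes of CCL3, CCL3L3 and CCL5 stood between 30.4 and 37.7. Set against Ctrl, the IMQ+DMD array kept 82.3%, 83.3%, 93.0% and 92.5% of the log2 difference of the CCL4L2 probes between IMQ and Ctrl. On the linear scale it kept 59.1%, 55.7%, 74.6% and 72.6% of the rise. Over 1603 probes raised with IMQ, a set smaller than the 1773 at least 2-fold higher, the median log2 share was 79.8%. The rest of the 1773 were not compared between IMQ+DMD and Ctrl, as the brighter array of that pair was not well above background. Leaving them out may raise the median. Among the 1603 probes, the log2 shares of the CCL4L2 probes stood at percentiles 53.52, 55.83, 72.3 and 71.55. Those of the CCL3 and CCL3L3 probes stood between 77.8 and 80.4. The 1603 probes were chosen for a high value on the IMQ array, which both differences share, so the median and these percentiles are a description only. With 1 array per condition, whether CCL4L2 differed from the other genes in this comparison could not be tested.

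The IMQ+DMD array was also set against Ctrl, and both comparisons with Ctrl share the same Ctrl array. CCL3 was 14.8-fold higher, with a difference of 3.89 ± 0.05. CCL3L3 was 30.0-fold and 32.1-fold higher at its 2 probes. CCL4L2 was 9.26-fold, 16.2-fold, 44.2-fold and 47.1-fold higher at its 4 probes, that is by 3.21, 4.01, 5.47 and 5.56 in log2 units, of which the first 2 were 2.54 and 2.37 with normexp background correction. CCL5 was 1.46-fold higher, with a difference of 0.55 ± 0.06. That difference was 0.14 under scaling to the spike-in probes of the array and 0.11 with no normalization between arrays. The same count as with IMQ alone was reached, with 7 of 8 probes at least 2-fold higher and 0 lower, where 3.09% of 43692 compared probes were at least 2-fold higher and 4.91% at least 2-fold lower.

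**Figure D3:**
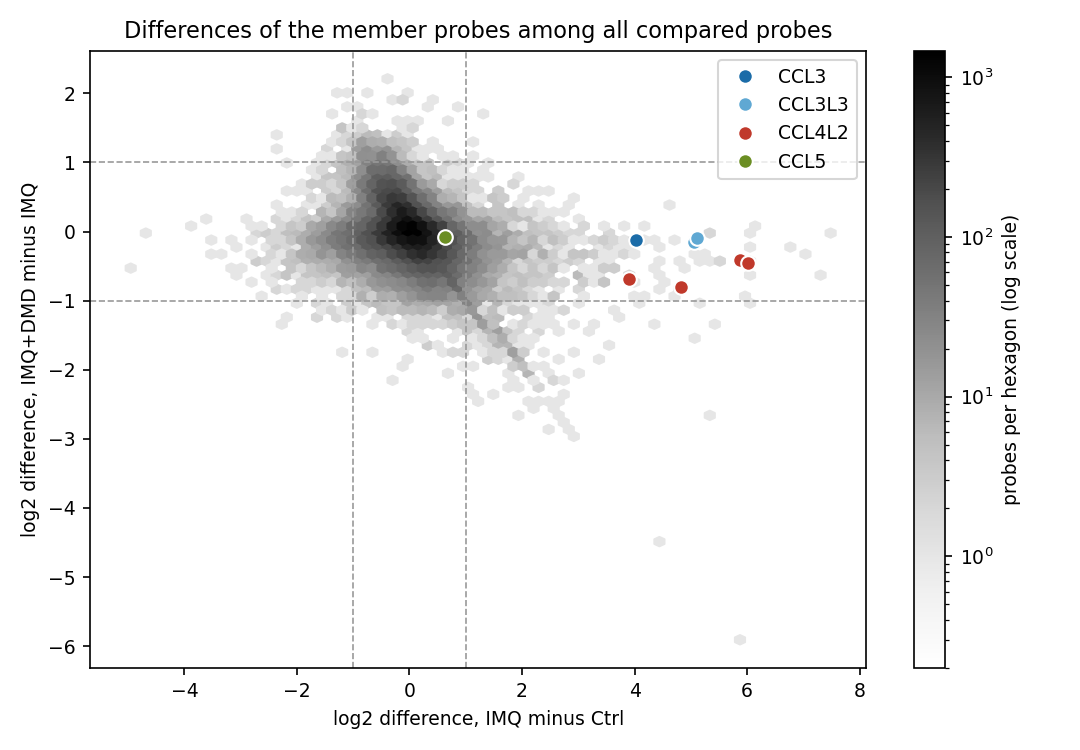
Log2 difference between IMQ and Ctrl (x axis) and between IMQ+DMD and IMQ (y axis) for all probes compared in both (gray hexagons, shaded by the number of probes on a log scale) and for the 8 chemokine probes (colored points), with dashed lines at 2-fold and the IMQ array used on both axes. The CCL3, CCL3L3 and CCL4L2 points lie between 3.90 and 6.01 on the x axis and above the lower dashed line, and CCL5 lies at 0.63 inside the bulk of probes.

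The scaling of the arrays bore on CCL5 and on the differences with DMD. The arrays differed in overall brightness, with a 75th percentile of the processed intensity of 472 for Ctrl, 346 for IMQ and 361 for IMQ+DMD. Scaling to the spike-in probes of the array moved the median of all compared probes to -0.66 between IMQ and Ctrl and to 0.25 between IMQ+DMD and IMQ, and with it 1.39% of probes were at least 2-fold higher and 23.2% at least 2-fold lower in the first of these. With no normalization the median was -0.51, with 1.71% higher and 15.6% lower. Between IMQ+DMD and IMQ the spike-in scaling gave 7.40% higher and 0.349% lower. CCL5 differed between IMQ and Ctrl by 0.15 under the spike-in scaling and by 0.75 under scaling to the 75th percentile. Relative to the median of all probes it lay between 0.59 and 0.82 above it under all 7 settings, of which 6 were alternatives.

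For CCL3 the difference between IMQ+DMD and IMQ was 0.0033 under the spike-in scaling and -0.24 under scaling to the 75th percentile. For CCL3L3 it was -0.06 at both probes under the spike-in scaling, and for CCL5 it was -0.01. The 75th percentile scaling, the spike-in scaling and no normalization differ only by a constant for each array, so that relative to the median of all probes they give nearly the same value by construction, namely -0.25 for CCL3, -0.31 for both CCL3L3 probes and -0.26 for CCL5 with the 75th percentile scaling. Relative to that median the normalized values of the authors gave -0.12 for CCL3, -0.14 and -0.09 for CCL3L3 and -0.08 for CCL5. The CCL4L2 probes were lower with DMD under every scaling tried, between -0.83 and -0.38. The large differences between IMQ and Ctrl were 3.11 or more for CCL3, CCL3L3 and CCL4L2 under every scaling tried.

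**Figure D4:**
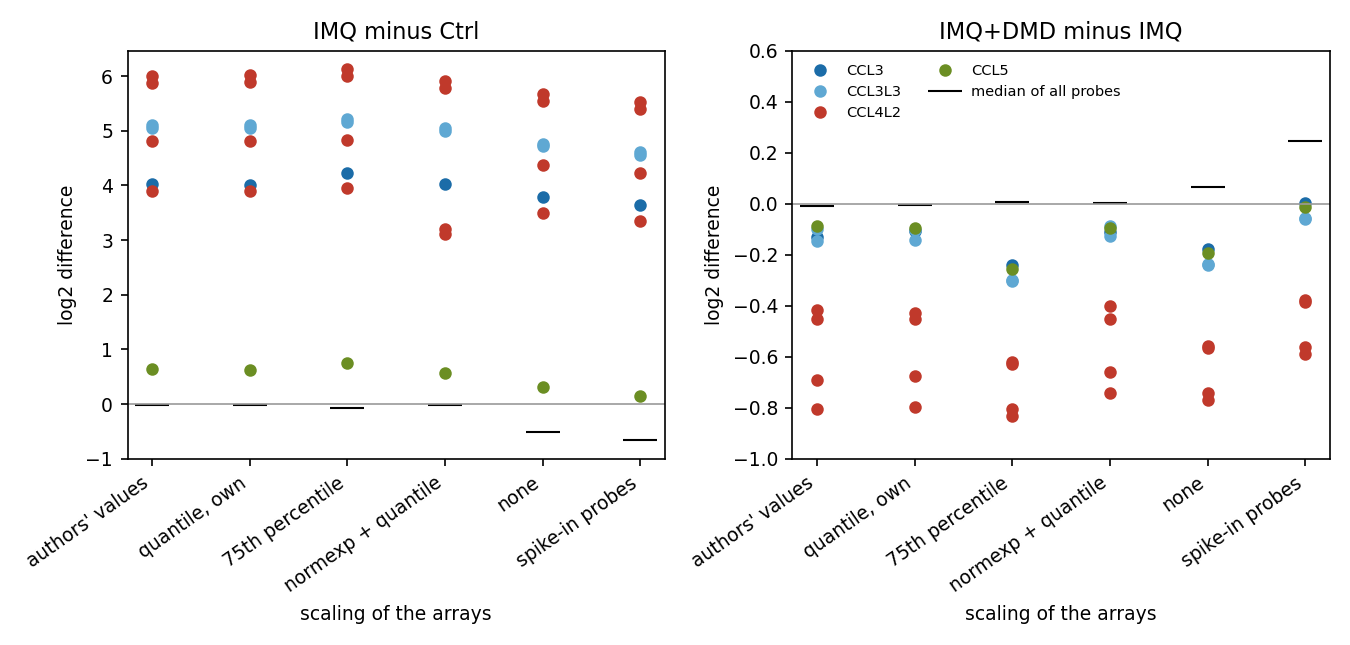
Log2 differences of the 8 chemokine probes (colored points) and the median of all compared probes (black bars) under 6 ways of scaling the arrays (x axis), for IMQ minus Ctrl on the left and IMQ+DMD minus IMQ on the right. CCL5 goes from 0.75 to 0.15 on the left, and on the right the median of all probes reaches 0.25 under the spike-in scaling while the CCL4L2 points stay at or below -0.38.

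RefSeq promoter entries for CCL3 and CCL3L3 were used, and are shown because both genes stood at least 16.2-fold higher with IMQ. Over 250 bases before the start, 234 aligned columns were identical (91.4%), with 10 mismatches and 12 gap columns. The 100 bases before each start are printed 5′ to 3′ on the minus strand (GRCh38.p14), with the bases that differ between the copies in capitals.
CCL3, chr17:36090144-36090243: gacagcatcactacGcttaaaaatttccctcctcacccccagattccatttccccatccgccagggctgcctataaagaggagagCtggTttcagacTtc
CCL3L3, chr17:36196759-36196858: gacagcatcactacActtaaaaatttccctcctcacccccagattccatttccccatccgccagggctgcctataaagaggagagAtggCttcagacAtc
Both held TATAAA once, from 29 to 24 bases before the start, as did 10.7% of the 35116 promoter entries on either strand. Neither held TGANTCA (the AP-1 motif, in 6.57% of entries), TGACGTCA (the cyclic AMP response element, in 1.65%), GAAANNGAAA (a core of the interferon response element, in 3.02%) or the NF-κB consensus (in 9.96%) within these 250 bases on either strand. The motifs were searched separately, and a missing match says only that these letters are not in this window.

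The receptors that the chemokines act on were read from a list of 9 receptors and scavengers, each gene by its brightest probe. CCR1, the receptor shared by CCL3 and CCL5, read 12.82, 11.54 and 11.62 (log2 levels on the Ctrl, IMQ and IMQ+DMD arrays) and was at least 2-fold lower with IMQ, with a difference of -1.28. CCR2, the receptor of CCL2, read 6.86 on the Ctrl array and was not well above background on the IMQ and IMQ+DMD arrays, so that its difference of -2.29 is a bound. Of the 7 receptors compared between IMQ and Ctrl, 2 were at least 2-fold lower and 0 were at least 2-fold higher. Among all compared probes the shares were 3.48% and 4.31%. The median of the list was 0.19, against -0.02 for all genes, and under scaling to the 75th percentile it was -0.02, which is 0.05 above the median of all compared probes there. Between IMQ+DMD and IMQ, 6 of the 7 compared were less than 2-fold apart, and CCR3, well above background on the IMQ+DMD array only, differed by at least 0.95.

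Of the 10 NF-κB subunits and inhibitors, which drive and limit chemokine genes, 7 were at least 2-fold higher with IMQ and 0 lower. Among all compared probes 4.31% were higher and 3.48% were lower at that threshold. The median difference of the 10 was 1.69, or between 1.20 and 1.80 under the scalings tried. NFKBIA, the inhibitor IκBα that NF-κB itself induces, read 12.74, 16.28 and 16.14 in log2 units, a difference of 3.54. BCL3, an atypical member of the IκB family, read 11.13, 15.09 and 14.78, a difference of 3.96. REL differed by 2.57, TNFAIP3, the A20 deubiquitinase, by 1.93, and RELB by 1.84. RELA, the p65 subunit, differed by 0.21 and was not among the 7. Between IMQ+DMD and IMQ none of the 10 differed 2-fold, and their median was -0.11, with TNFAIP3 at 0.12 and BCL3 at -0.31.

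The AP-1 and C/EBP factors gave a like count. Of the 10, 7 were at least 2-fold higher with IMQ and 0 lower, against 4.31% and 3.48% of all compared probes. The median of the 10 was 1.31 and stayed between 0.67 and 1.31 under the scalings tried. CEBPB differed by 3.04, FOSL2 by 2.76 and JUNB by 1.46, while JUN differed by 0.54 and CEBPD by 0.14. None differed 2-fold between IMQ+DMD and IMQ, where FOS differed by -0.60 and ATF3 by 0.51.

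Of the interferon regulatory factors and interferon genes, which include known activators of CCL5, 8 of the 9 compared were lower with IMQ than in Ctrl and 1 was higher. Among them 3 were at least 2-fold lower and 0 at least 2-fold higher, against 3.48% and 4.31% of all compared probes. The median of the 9 was -0.23. Less the median of all compared probes it was -0.21, and -0.04 under scaling to the 75th percentile. IRF8 differed by -1.15, IFIT1 by -1.45 and MX1 by -1.15. IRF1 differed by 0.39 and IRF7 by -0.01. IFNB1, the gene of interferon beta, was not well above background on the Ctrl and IMQ arrays. Between IMQ+DMD and IMQ, 9 of the 10 compared were less than 2-fold apart, and IFNB1 differed by at least 0.46.

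In the route of the IMQ receptor, TLR7 read 9.24, 6.51 and 5.75 in log2 units, a difference of -2.73 between IMQ and Ctrl. TLR8 was well above background on the Ctrl array only, at 5.57, and its difference between IMQ and Ctrl is a bound that lies at the 2-fold threshold. The other 6 of the 8 genes were less than 2-fold apart. The adaptor MYD88 differed by -0.47 and the kinase IRAK1 by 0.48. Of the 5 genes of cytokine mRNA decay, 2 were at least 2-fold higher with IMQ, against 4.31% of all compared probes. They were ZC3H12A (Regnase-1), higher by 2.77, and ZFP36 (tristetraprolin), by 1.32. Both proteins shorten the life of cytokine mRNAs. Between IMQ+DMD and IMQ these differed by -0.15 and -0.11.

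Of the 8 genes for processing, storing and binding chemokines, 3 were at least 2-fold higher with IMQ and 0 lower. The shares of all compared probes were 4.31% and 3.48%. SRGN, the proteoglycan serglycin that holds chemokines in granules, differed by 1.78, and CD44, a hyaluronan receptor, differed by 1.497. TNFAIP6, a hyaluronan-binding protein, read 5.73, 11.80 and 11.60, a difference of 6.08. The protease DPP4, which trims CCL5 and the CCL3 copies, differed by 0.27. None differed 2-fold between IMQ+DMD and IMQ.

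The neighbors on chromosome 17 did not show differences of the size seen for CCL3 and CCL4L2. Of the 5 found on the array, none was 2-fold higher or lower with IMQ. CCL18 differed by 0.69, CCL15 by 0.79, CCL14 by 0.70, CCL16 by 0.11 and CCL23 by -0.11. Their median of 0.69 was -0.12 under the spike-in scaling, which is 0.55 above the median of all compared probes there. Between IMQ+DMD and IMQ, CCL18 differed by -0.88 and CCL15 by 0.78. Against Ctrl, CCL15 and CCL14 were at least 2-fold higher on the IMQ+DMD array, by 1.57 and 1.21.

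**Figure D5:**
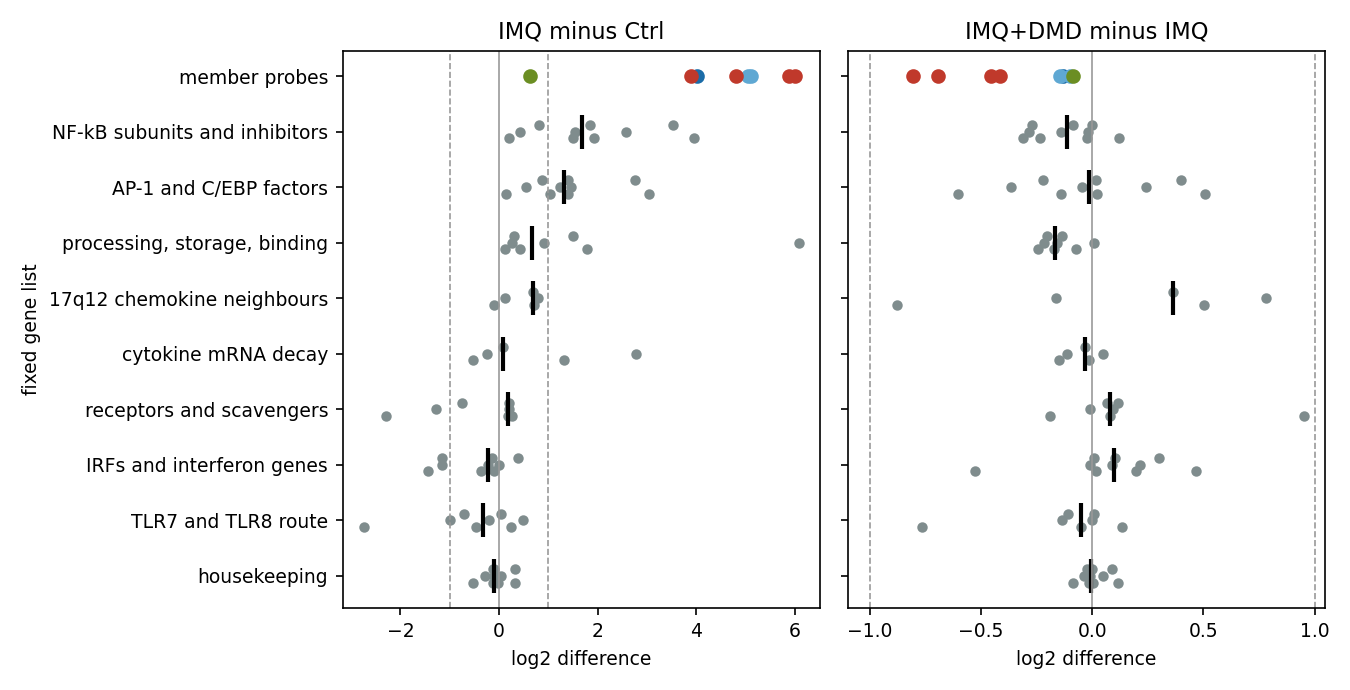
Log2 differences of the genes of 9 fixed lists (gray points, black bar at the median) and of the 8 chemokine probes (colored as in the other plots) for IMQ minus Ctrl on the left and IMQ+DMD minus IMQ on the right, with dashed lines at 2-fold. On the left 7 of 10 NF-κB genes and 7 of 10 AP-1 and C/EBP genes lie beyond the right dashed line, and on the right no point of these lists lies beyond either line, where those of CCR3 and IFNB1 are bounds.

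The genes whose 2 differences were most like those of each chemokine were sought among 29333 genes with a symbol, by Euclidean distance in log2 units over the 3 arrays. Nearest to CCL3 were IRAK2, a kinase of Toll-like receptor signaling, at a distance of 0.07, then BCL3 at 0.19 and RRAD, a small GTPase, at 0.22. Nearest to CCL3L3 probe 1 were IER3, an immediate-early gene, at 0.18, the amino acid transporter SLC43A2 at 0.30 and GFPT2, an enzyme of hexosamine synthesis, at 0.31. For CCL3L3 and CCL4L2 the distances rest on 1 probe each, probe 1 and probe 4, and the other CCL4L2 probes had other differences. Nearest to CCL4L2 probe 4 were CCL20, the ligand of CCR6, at 0.22, TNFAIP6 at 0.26 and IL23A, the p19 subunit of IL-23, at 0.49. CCL20 read 10.04, 16.04 and 15.37 on the Ctrl, IMQ and IMQ+DMD arrays in log2 units. CCL5 lay where probes are dense, and its nearest were lnc-RSPRY1-1, MYBPC3 and SNORD37, all within 0.02.

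The label was checked against markers. Of the 10 macrophage or monocyte markers, 8 were found on the array and all 8 were well above background on each array, CSF1R with 17.78, 17.40 and 17.23 in log2 units and CD14 with 14.42, 13.71 and 13.20. The mark is lenient, because most markers of other cells carried it too, among them all 5 of T cells, with CD3D at 8.32, 8.25 and 8.39. The levels of the lists overlapped as well. MRC1 of the macrophage list read 7.12, 6.61 and 7.25, and GNLY of the natural killer cell list read 12.83, 13.02 and 13.04. Of the marker lists for T cells, natural killer cells, B cells, platelets and keratinocytes, no gene reached 2-fold between IMQ and Ctrl, except that for KRT5, not well above background on the IMQ array, the difference of -0.75 is a bound and may be larger. The medians of the lists were -0.07, -0.01, -0.29, 0.09 and -0.34 in that order. Of 10 housekeeping genes none differed 2-fold, with a median of -0.10 that was 0.10 under scaling to the 75th percentile, -0.35 with no normalization and -0.50 under the spike-in scaling, the last being 0.17 above the median of all compared probes. In such bulk RNA fewer responding cells and less RNA per cell cannot be told apart.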

How the data were processed

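RNA of THP-1 macrophages was labeled with Cy3 and hybridized to 1 array for each condition, so precision is limited by the number of arrays. The authors deposited the scanner output (Feature Extraction 10.5.1.1), with a processed signal intensity for each spot, and a table of raw intensity and quantile-normalized intensity for each probe. The raw column was checked against the processed intensity of 57901 single-spot probes and did not differ. The 3 columns of detection calls in the table were not used.

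Values were the log2 of the normalized intensity. A probe was well above background where at least 50% of its spots were marked so by the scanner software, and one that was not was set to at least the lowest value of those that were (4.04, 4.57 and 4.08 in log2 units on the Ctrl, IMQ and IMQ+DMD arrays). Comparisons took in the probes well above background on the brighter array, with a threshold of 2-fold. No p-value was computed. Technical SDs came from 300 probes with 10 spots each, as the median of the 20 nearest in brightness. The alternatives with quantile normalization and with normexp background correction were made with limma 3.58.1 in R 4.3.3. The other alternatives and the rest were made with Python 3.11.15, numpy 2.4.6 and pandas 2.3.3, tested on simulated data. All probes of the members and any gene of the fixed lists could be named, with the 3 genes nearest to each member. The members and lists were chosen with earlier results of these data known. The values of 1 gene of the receptor list are not reported here.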

Additional observations from a re-analysis of the deposited data

How the results depend on the processing

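The count of chemokine probes at least 2-fold apart was the same under every alternative for IMQ against Ctrl and IMQ+DMD against Ctrl, except that it was 8 in place of 7 for IMQ against Ctrl at a 1.5-fold threshold. There 11.2% of all compared probes were higher and 10.6% were lower. For IMQ+DMD against IMQ it was 0 under every alternative but the 1.5-fold threshold, which gave 2 lower, both CCL4L2 probes. At that threshold 5.98% of all compared probes were lower. At 4-fold the counts were 7 for IMQ against Ctrl, 0 for IMQ+DMD against IMQ and 7 for IMQ+DMD against Ctrl. Of all compared probes 0.895%, 0.0196% and 0.62% were at least 4-fold higher in that order, and 0.328%, 0.1% and 0.636% lower. Of 144 alternative values of single probes, 143 kept their direction, and the exception was CCL3 for IMQ+DMD against IMQ under the spike-in scaling (0.0033). The alternative without the background filter and floor could not move these probes, since all 8 were well above background on each array. The largest move was 1.71, at CCL4L2 probe 2 between IMQ and Ctrl with normexp background correction (offset 50), which gave 3.11. All 24 values of genes read by the mean of their probes or by their brightest probe kept their direction, but most of them could not differ. The brightest probe gave the main value for every gene, and CCL3 and CCL5 have 1 probe each. Of 162 list medians, 140 kept theirs. No paired analysis was possible because there was 1 array per condition. Without replicates, differences near the scanner error of 0.20 cannot be resolved, and no group was large enough to look for outlying samples.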

Other observations

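The spots behind the chemokine values carried no outlier mark on any array. The SD of the pixels within a spot, in percent of their mean, was 14.4% for CCL3 on the Ctrl array and 4.204% on the IMQ array. It was 7.08%, 7.83% and 6.07% for CCL5 on the Ctrl, IMQ and IMQ+DMD arrays. For CCL4L2 probe 2 it was 23.1% on the Ctrl array, the dimmest of these spots.

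Among the macrophage markers, CD163, a scavenger receptor, read 13.43, 12.21 and 12.30 in log2 units on the Ctrl, IMQ and IMQ+DMD arrays and was the 1 gene of the 8 that was at least 2-fold lower with IMQ. CD14, a co-receptor of Toll-like receptors, was at least 2-fold lower on the IMQ+DMD array than on the Ctrl array, with a difference of -1.21. The keratin gene KRT5 was not well above background on the IMQ array and differed by at least 1.11 between IMQ+DMD and IMQ.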
